A study of Mus musculus with 12 samples.

Results

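The 10 genes described here encode Rag GTPases and other parts of the machinery by which cells report amino acid supply to the kinase complex mTORC1: Rragd, Rraga, Rragc, Lamtor1, Flcn, Rheb, Tsc1, Tsc2, Mtor and Rptor. They were chosen by symbol from a count table of 21839 genes, and the set was put together because the level of Rragd followed the CD25 gate in these same libraries. The gate values of Rragd are therefore a description and carry no test, while the other 9 genes were tested over all genes. All 10 were found in the table and all 10 passed the filter on low counts, which kept 11766 genes.

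Amino acids inside the lysosome and the cytosol are read out on the lysosomal membrane. A heterodimer of RagA or RagB with RagC or RagD, held there by the Ragulator complex, recruits mTORC1 when amino acids are present, and the small GTPase Rheb then switches the kinase on. The TSC complex turns Rheb off, folliculin (encoded by Flcn) acts on the RagC or RagD side of the dimer, and work in mice has shown that Foxp3+ regulatory T cells need mTORC1 and Rag GTPases for their suppressive function.

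The libraries came from CD4+ CD62L+ cells of spleens and lymph nodes (brachial, cervical, inguinal) of C57BL/6 mice, sorted as CD25 High or CD25 Low and labelled as regulatory T cells. CD25 is the alpha chain of the interleukin-2 receptor, encoded by Il2ra. TG mice were Atg5 flox/flox CD11c Cre +/-, so that Cre from the CD11c promoter deletes the autophagy gene Atg5 in cells that express CD11c, chiefly dendritic cells; their WT littermates were Atg5 flox/flox CD11c Cre -/-. All 4 groups thus carried floxed Atg5, the sorted T cells are not the main cells in which this Cre acts, and the labels give neither the age of the mice nor whether animals were pooled. TG High, WT High, TG Low and WT Low had 3 libraries each, 12 in all. Whether each replicate was another animal is not stated in the labels, and p-values therefore speak only of the variation among these libraries, which may be technical.

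Totals ran from 6767828 counts in TG High replicate 2 to 23942479 in WT High replicate 2. The sort was visible in its own genes: with the replicate number as a block, Il2ra was 2.01-fold higher in TG High than in TG Low and 2.04-fold higher in WT High than in WT Low (edgeR adjusted p = 2.14e-05 and 1.42e-05), and Foxp3, the lineage factor of regulatory T cells, was 1.34-fold higher in TG High and 1.43-fold higher in WT High (edgeR adjusted p = 0.0114 and 0.00212). Without the block neither passed in edgeR (adjusted p = 0.0819 in TG and 0.0634 in WT for Il2ra, and 0.303 in TG and 0.118 in WT for Foxp3), with folds of 1.99 and 2.02 for Il2ra and 1.34 and 1.43 for Foxp3. Foxp3 stood between 983 and 1662 CPM (library-size-normalised read count, here after TMM scaling, which evens out composition between libraries) in all 12 libraries, and Cd4 at 513 CPM or above. With the block, the T cell receptor gene Trac was lower in TG High than in TG Low (log2 -0.40, edgeR adjusted p = 0.0231), and the cell cycle gene Top2a was higher in WT High than in WT Low (log2 0.73, edgeR adjusted p = 0.016); neither was called without the block. Atg5 was counted in every library, at 38.6 ± 4.13 CPM in TG High, 33.3 ± 2.08 in WT High, 38.6 ± 2.49 in TG Low and 37.0 ± 0.579 in WT Low (SD, n = 3 each), and being measured in T cells it does not check the genotype labels. Libraries of the same replicate number varied together, and 4030 of 11766 genes (34.3%) differed between the numbers with the groups held constant. Results are therefore reported from a fit that ignores the number and, where named, from a fit blocked on it.

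The windows around the annotated starts of Rragd, the member that differed between the gates, and of Rragc, its closest relative in the complex, are shown for context (RefSeq, GRCm38.p6, plus strand, 250 bases before the start to 50 after it). They lie at chr4:32982748-32983047 for Rragd and chr4:123917183-123917482 for Rragc, and capitals mark the palindrome CACGTG, the core of the E-box that the lysosomal transcription factors Tfeb and Tfe3 bind. The gene starts in these windows are those of RefSeq and differ from the GENCODE starts given below for both genes. No binding was measured here.
Rragd: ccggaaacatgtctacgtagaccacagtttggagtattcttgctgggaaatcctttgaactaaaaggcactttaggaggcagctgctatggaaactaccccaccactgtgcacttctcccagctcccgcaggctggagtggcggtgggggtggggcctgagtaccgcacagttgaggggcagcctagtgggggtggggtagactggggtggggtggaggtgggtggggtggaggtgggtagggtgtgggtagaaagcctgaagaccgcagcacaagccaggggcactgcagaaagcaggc
Rragc: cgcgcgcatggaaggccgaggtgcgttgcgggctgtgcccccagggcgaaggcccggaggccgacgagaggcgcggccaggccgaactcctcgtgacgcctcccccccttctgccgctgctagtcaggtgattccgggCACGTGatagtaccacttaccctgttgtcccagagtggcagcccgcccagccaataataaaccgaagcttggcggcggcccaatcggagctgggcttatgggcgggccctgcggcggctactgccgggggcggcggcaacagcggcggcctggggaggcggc
The Rragc window held 1 CACGTG, starting 112 bases before the RefSeq start, and the Rragd window held none. Of the 10 members, 3 had it (Rragc, Rheb and Lamtor1), and of all 32851 promoter windows of the same length 7.15% did. The same 3 windows held the longer TCACGTG on one strand or the other, a string that contains CACGTG and occurred in 3.77% of all windows. The interleukin-2 signal reaches DNA through STAT5, whose sites follow the palindrome TTCNNNGAA; it was found in the windows of Rraga and Mtor and in 8.3% of all windows, and not in those of Rragd or Rragc. Matches are descriptions of these letters in these windows.

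Rragd encodes RagD, which like RagC can fill the RagC/D side of the Rag heterodimer. It is a protein coding gene on the plus strand of chromosome 4 (ENSMUSG00000028278, 32983037 to 33022180, GRCm38). TG High libraries had 24.1, 25.6 and 25.6 CPM and TG Low libraries 15.7, 14.0 and 13.9 CPM. WT High libraries had 28.9, 23.6 and 25.6 CPM and WT Low libraries 12.7, 15.2 and 13.6 CPM. All 6 High libraries stood above all 6 Low libraries, and the lowest High value (23.6 CPM, WT High replicate 2) lay above the highest Low value (15.7 CPM, TG Low replicate 1).

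The fitted High minus Low difference of Rragd was 0.79 on the log2 scale in TG (SE 0.12), a 1.73-fold difference. In WT it was 0.91 (SE 0.12), a 1.88-fold difference. Among pairs of libraries with the same replicate number, High exceeded Low in 6 of 6, by 1.54-fold to 2.28-fold. These values chose the gene and are given without a test. Counts behind them ran from 167 in the shallowest library (TG High replicate 2) to 587 in WT High replicate 3. In bulk RNA, fewer cells of a type and less RNA per cell cannot be told apart.

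Some transcripts of other cells differed between the gates as well. Without TMM scaling, the summed CPM of 6 listed CD8 T or NK cell genes ran from 31.6 to 38.5 in TG High against 27.9 to 54.7 in TG Low, and from 29.2 to 42.1 in WT High against 31.1 to 51.9 in WT Low. With the block, edgeR called Klrk1, an NK receptor, lower in TG High (log2 -3.48, adjusted p = 0.0251). It called Ncr1, Klrb1c, Klrd1 and Klrk1 lower in WT High (log2 -3.46 to -3.12, adjusted p = 0.0043 to 0.0284). Cd8a and Cd8b1, also on this list, were called in neither genotype. Counts were near the floor for some: 2 of the 6 genes in TG High, 3 in WT High, 3 in TG Low and 1 in WT Low were at 0 in at least 1 library. Without the block none of the 6 was called in either genotype (smallest edgeR adjusted p = 1 in both). Sums of 6 B cell genes (31.8 to 292 CPM), of 7 myeloid or dendritic cell genes (5.98 to 101 CPM) and of 5 cell cycle genes (7.85 to 240.5 CPM) were highest in replicate 1 of every group. Of the 7 myeloid genes, Cd14 was at 0 in all 3 WT High libraries. The part of such cells in the Rragd difference was not tested; without the 4 libraries numbered 1 it was 0.88 in TG (SE 0.16) and 0.77 in WT (SE 0.16) on the log2 scale.

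**Figure D1:**
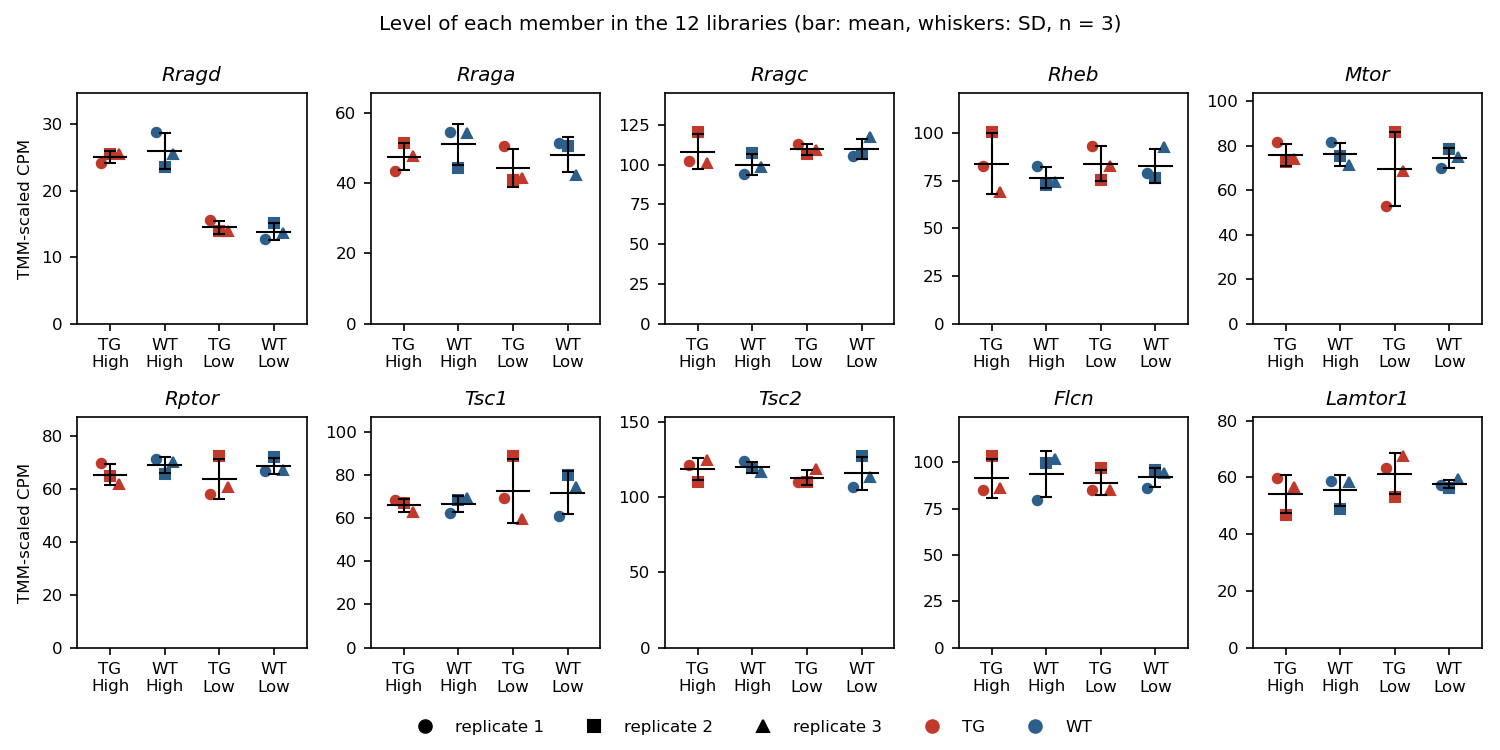
Level of each of the 10 genes (y axis, TMM-scaled CPM, from 0) in TG High, WT High, TG Low and WT Low libraries (x axis); points are libraries, shaped by replicate number, and bars and whiskers are the mean and SD of 3 libraries. In the Rragd panel the High libraries (23.6 to 28.9 CPM) lie above the Low libraries (12.7 to 15.7 CPM), while in the other 9 panels High and Low libraries overlap.

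No difference of Rragd between the genotypes was called. The TG minus WT difference was -0.05 in High cells (SE 0.12, interval -0.29 to 0.18) and 0.07 in Low cells (SE 0.12, interval -0.17 to 0.31), both on the log2 scale, with an edgeR adjusted p of 1 for each. Group means were 25.1 ± 0.840 CPM in TG High and 26.0 ± 2.69 in WT High, and 14.5 ± 1.00 in TG Low and 13.8 ± 1.25 in WT Low (SD, n = 3 each). Ordered by mean, WT High and TG High were neighbours that overlapped, as were TG Low and WT Low. The difference of the genotype effects between the gates, which is also the difference of the gate effects between the genotypes, was -0.12 (SE 0.17, interval -0.45 to 0.21, edgeR adjusted p = 1). Rragd was not called between the replicate numbers either (edgeR adjusted p = 0.93).

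Rragc encodes RagC, which shares the RagC/D position with RagD. It also lies on chromosome 4 (ENSMUSG00000028646, 123917446 to 123936997, plus strand). TG High libraries had 103, 121 and 101 CPM and TG Low libraries 113, 107 and 109 CPM. WT High libraries had 94.5, 107 and 98.5 CPM and WT Low libraries 106, 107 and 118 CPM. High and Low values overlapped in both genotypes, and the fitted High minus Low log2 difference was -0.02 in TG (SE 0.09, interval -0.20 to 0.15) and -0.14 in WT (SE 0.09, interval -0.31 to 0.04), neither called (edgeR adjusted p = 1 for both). Rragc shares 264 exon bases with 4930535I16Rik on the other strand, and since the kit does not record strand, reads from that stretch cannot be assigned to one of the pair.

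Rragd was thus the smaller of the RagC/D pair in every library, and its share differed between the gates. Per kilobase of annotated exon, Rragd made up 13.1% ± 1.00 of the summed Rragc and Rragd level in TG High and 7.87% ± 0.319 in TG Low (SD, n = 3 each). It made up 14.4% ± 2.04 in WT High and 7.53% ± 0.771 in WT Low. The lowest share in any High library was 12.03% and the highest in any Low library 8.41%. The shares rest on the Rragd values that chose the gene and carry no test, and they do not depend on how libraries were scaled. The sum of both genes per kilobase was similar in the 4 groups, at 37.3 ± 3.32 CPM in TG High against 35.6 ± 1.17 in TG Low, and 35.0 ± 1.51 in WT High against 35.6 ± 1.98 in WT Low, with ranges that overlapped.

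Rraga encodes RagA, the main partner on the other side of the dimer (chromosome 4, ENSMUSG00000070934, 86575668 to 86577285, plus strand). TG High libraries had 43.6, 51.4 and 47.9 CPM and TG Low libraries 50.6, 40.8 and 41.6 CPM. WT High libraries had 54.7, 44.3 and 54.4 CPM and WT Low libraries 51.6, 50.6 and 42.5 CPM. These groups overlapped, with fitted High minus Low log2 differences of 0.10 in TG (SE 0.13) and 0.08 in WT (SE 0.13), neither called (edgeR adjusted p = 1 for both). Rragb, the remaining Rag gene and a close relative of Rraga, is not one of the 10 and is given to complete the family. It made up 9.88% ± 1.43 of the summed Rraga and Rragb level per kilobase in TG High and 11.2% ± 1.86 in TG Low (SD, n = 3 each), and 8.96% ± 1.504 in WT High and 9.25% ± 1.42 in WT Low, with shares that overlapped between the gates. In both heterodimer positions the same gene of the pair, Rragc and Rraga, gave most of the RNA in all 12 libraries.

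**Figure D2:**
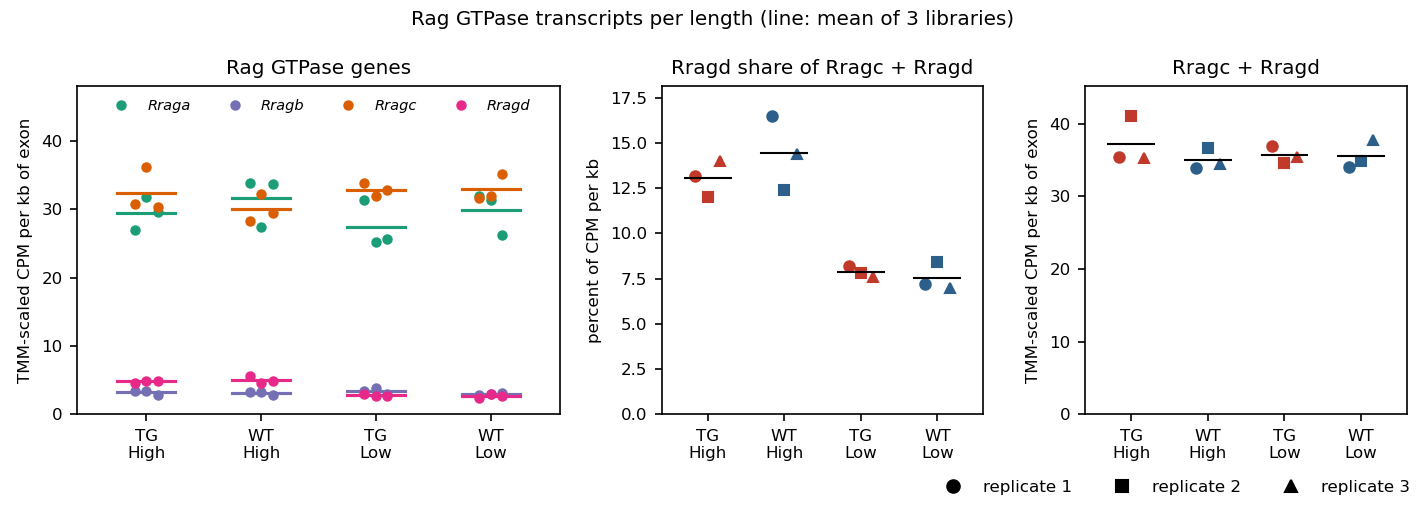
Rag GTPase transcripts in TG High, WT High, TG Low and WT Low libraries (x axes). Left, TMM-scaled CPM per kb of exon for Rraga, Rragb, Rragc and Rragd; middle, the percentage of the summed Rragc and Rragd level that was Rragd; right, that sum; lines are means of 3 libraries. The Rragd share was 12.03% to 16.5% in High libraries and 6.98% to 8.41% in Low libraries, while the sum overlapped between all groups.

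Lamtor1 encodes the subunit that anchors Ragulator, and with it the Rag dimer, to the lysosomal membrane (chromosome 7, ENSMUSG00000030842, 101905904 to 101926675, plus strand). TG High libraries had 59.6, 46.7 and 56.4 CPM and TG Low libraries 63.2, 53.2 and 67.5 CPM. WT High libraries had 58.8, 49.0 and 58.3 CPM and WT Low libraries 57.1, 56.3 and 59.2 CPM. High was below Low in 5 of 6 pairs of the same number, and the groups overlapped. The High minus Low log2 difference was -0.17 in TG (SE 0.12, edgeR adjusted p = 1; with the block SE 0.09, unadjusted p = 0.0619, adjusted p = 0.439) and -0.06 in WT (SE 0.12, edgeR adjusted p = 1), so neither was called. Lamtor1 shares 600 exon bases with Lrrc51 on the other strand.

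Lamtor1 was the 1 member of 10 that differed between the replicate numbers by the edgeR test (adjusted p = 0.0384), in a test that called 34.3% of all genes. It averaged 59.7 ± 2.55 CPM in the 4 libraries numbered 1, 51.3 ± 4.31 in those numbered 2 and 60.4 ± 4.93 in those numbered 3 (SD, n = 4 each). Flcn missed the threshold in edgeR (adjusted p = 0.059) and passed it in DESeq2's likelihood ratio test (adjusted p = 0.0382), which also called Lamtor1 (adjusted p = 0.0418). What the numbers mark is not given in the labels.

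Flcn encodes folliculin, a GTPase activating protein for RagC and RagD (chromosome 11, ENSMUSG00000032633, 59791408 to 59810016, minus strand). TG High libraries had 84.9, 103 and 85.9 CPM and TG Low libraries 85.3, 96.7 and 84.9 CPM. WT High libraries had 79.5, 99.3 and 102 CPM and WT Low libraries 86.1, 95.6 and 94.1 CPM. In 3 of the 4 groups the highest value was replicate 2, and the gates overlapped. The High minus Low log2 difference was 0.04 in TG (SE 0.11, interval -0.19 to 0.26) and 0.03 in WT (SE 0.11, interval -0.20 to 0.25), neither called (edgeR adjusted p = 1 for both).

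Rheb, the GTPase that activates mTORC1, and its inhibitors Tsc1 and Tsc2 form the input for growth factors and energy. Rheb (chromosome 5, ENSMUSG00000028945, 24802823 to 24842624, minus strand) had 82.5, 101 and 68.9 CPM in TG High, 93.5, 75.2 and 83.0 in TG Low, 82.9, 72.7 and 74.5 in WT High and 79.0, 76.3 and 92.7 in WT Low. Its replicates spread over as wide a range as its groups. Tsc1, which stabilises Tsc2 (chromosome 2, ENSMUSG00000026812, 28641228 to 28691167, plus strand), had 68.6, 67.0 and 62.7 CPM in TG High, 69.5, 89.0 and 59.9 in TG Low, 62.3, 68.6 and 69.2 in WT High and 60.8, 80.2 and 74.7 in WT Low. Tsc2, the GTPase activating protein for Rheb (chromosome 17, ENSMUSG00000002496, 24595816 to 24632630, minus strand), stayed between 107 and 128 CPM in all 12 libraries and had the smallest coefficient of variation of the 10 genes over them, 5.80%. Tsc2 shares 693 exon bases with Pkd1 on the other strand.

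None of these 3 genes differed between the gates beyond the spread between replicates. The High minus Low log2 differences were -0.00 for Rheb (SE 0.14), -0.14 for Tsc1 (SE 0.14) and 0.07 for Tsc2 (SE 0.09) in TG. In WT they were -0.11 for Rheb (SE 0.14), -0.11 for Tsc1 (SE 0.14) and 0.05 for Tsc2 (SE 0.09), and the edgeR adjusted p was 1 in each case. Tsc2 was higher in High in 5 of 6 pairs of the same number, by at most 1.16-fold.

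Mtor encodes the kinase (chromosome 4, ENSMUSG00000028991, 148448611 to 148557683, plus strand) and Rptor encodes Raptor, the mTORC1 subunit that the Rag dimer binds (chromosome 11, ENSMUSG00000025583, 119602905 to 119899576, plus strand). Mtor had 81.6, 72.6 and 73.9 CPM in TG High, 53.1, 86.3 and 68.9 in TG Low, 81.7, 75.6 and 71.2 in WT High and 70.0, 78.7 and 75.2 in WT Low. The lowest and the highest of these values were both TG Low libraries. Rptor had 69.5, 64.6 and 61.8 CPM in TG High, 58.0, 72.3 and 60.4 in TG Low, 71.1, 65.5 and 69.9 in WT High and 66.7, 72.1 and 67.0 in WT Low. The High minus Low log2 difference of Mtor was 0.13 in TG (SE 0.14) and 0.03 in WT (SE 0.14), and that of Rptor 0.04 in TG (SE 0.10) and 0.00 in WT (SE 0.10), none called (edgeR adjusted p = 1 for each). Rptor shares 84 exon bases with an antisense RNA, Rptoros, that was not analysed here.

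Across the 9 members other than Rragd, no gate difference was called in either genotype. In TG the fitted log2 differences ran from -0.17 (Lamtor1) to 0.13 (Mtor) with a median of 0.04, and their intervals stayed within -0.42 and 0.42. In WT they ran from -0.14 (Rragc) to 0.08 (Rraga) with a median of 0.00, and their intervals stayed within -0.38 and 0.33. Over all tested genes the median was -0.00 in both. The test called 1 of 11766 genes in TG (0.0085%) and 6 in WT (0.051%), and with the block 198 (1.68%) in TG and 192 (1.63%) in WT. No member had an unadjusted p under 0.05, with or without the block, and DESeq2 called none of the 9. With the block, the smallest edgeR adjusted p was 0.439 in TG (Lamtor1) and 0.733 in WT (Rragc). High and Low libraries were free of overlap for 1 of 10 members in each genotype, which was Rragd, against 8.07% of all tested genes in TG and 8.86% in WT. Nothing is read from these shares, since the gate contrast chose Rragd.

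**Figure D3:**
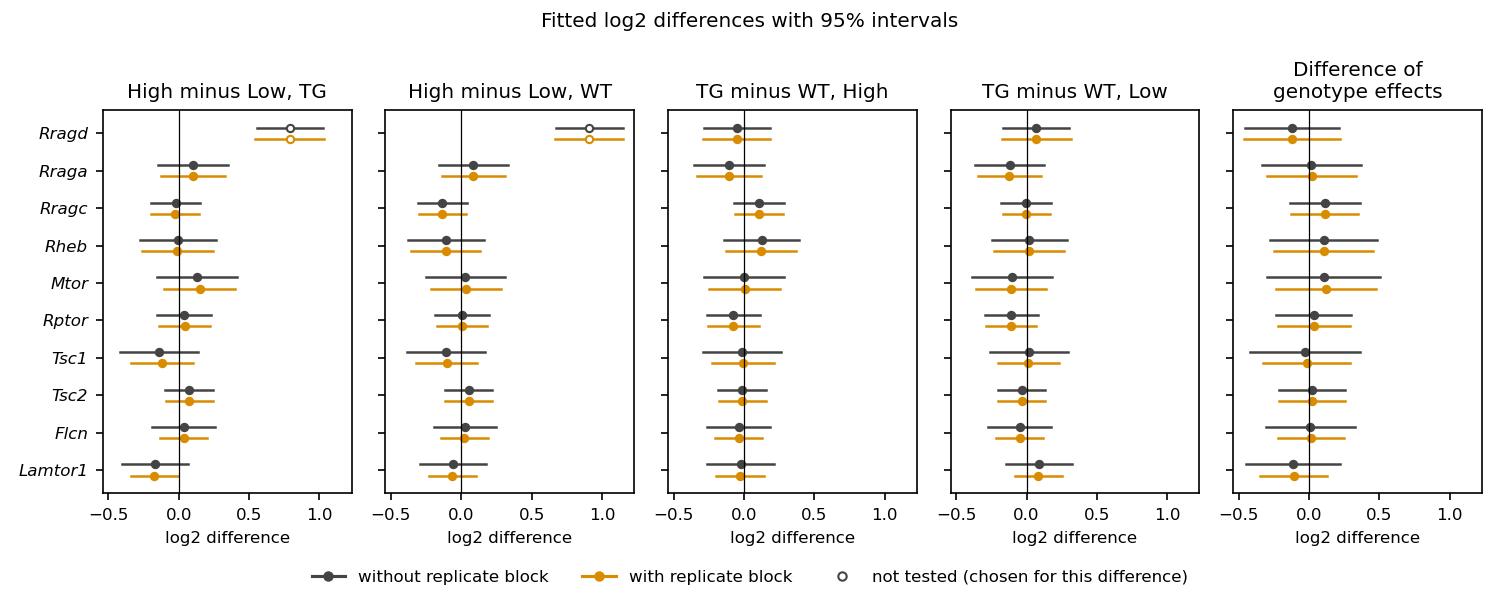
Fitted log2 differences (x axes) of the 10 genes (rows) in 5 comparisons, with intervals of 1.96 SE, from edgeR fits that ignore the replicate number (grey) or are blocked on it (orange). Open points are the gate differences of Rragd, 0.79 in TG and 0.91 in WT, which chose the gene and were not tested. Because of that choice, the intervals drawn for them are no evidence of a difference from 0. Intervals of the other genes lie within -0.42 and 0.42 in the gate panels.

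Loss of Atg5 in CD11c-expressing cells came with no called difference in any of the 10 genes. The fitted TG minus WT log2 differences ran from -0.10 (Rraga) to 0.13 (Rheb) in CD25 High, with intervals within -0.35 and 0.39, and from -0.12 (Rraga) to 0.09 (Lamtor1) in CD25 Low, with intervals within -0.39 and 0.32. Rragc was higher in TG High than in WT High in 3 of 3 pairs of the same number, by 1.03-fold to 1.12-fold (log2 0.11, SE 0.09), and Rptor was lower in 3 of 3 (log2 -0.08, SE 0.10), yet neither passed (edgeR adjusted p = 1 for both). Rraga was lower in TG Low than in WT Low in 3 of 3 pairs (log2 -0.12, SE 0.13, edgeR adjusted p = 1). No member had TG and WT libraries free of overlap, in High, where 4.27% of all tested genes did, or in Low, where 3.3% did.

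The same test called 0 of 11766 genes (0%) between TG and WT in High and in Low, with and without the block. In edgeR without the block, 99 genes in High and 48 in Low had an unadjusted p under 0.05, with the block 418 and 382, and DESeq2 called 0 in both. No difference of the genotype effects between the gates was called for any of the 10 genes; fitted differences ran from -0.12 (Rragd) to 0.11 (Rragc), with intervals within -0.45 and 0.50. Across all genes that comparison called 0% without and with the block (27 and 118 genes with an unadjusted p under 0.05 in edgeR, and 0 calls in DESeq2). These intervals are not adjusted for the number of genes tested and do not mark a limit of detection. With 3 libraries a group, larger differences could also go uncalled. Without the block, Il2ra was not called between the gates in TG, at a mean of 1183 CPM in High and 593 CPM in Low. Il2rb was called in that comparison, at a mean of 1899 CPM in High and 1054 CPM in Low (edgeR adjusted p = 0.00657).

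Per kilobase of annotated exon the 10 genes spanned 32.0 to 3.84 CPM on average over the 12 libraries. Rragc (32.0 ± 2.26, SD over 12 libraries) and Rraga (29.6 ± 3.11) were highest and overlapped, followed by Flcn (21.2 ± 1.84) and Lamtor1 (17.8 ± 1.76), which overlapped as well. Tsc2 (12.2 ± 0.706) and Rheb (10.6 ± 1.23) came next, then Mtor (7.32 ± 0.836), Tsc1 (5.86 ± 0.718) and Rptor (4.94 ± 0.349), each overlapping its neighbour. Rragd averaged 3.84 ± 1.18 over all 12, a mean of gates that differ: per kilobase it was at 4.85 ± 0.162 in TG High and 5.03 ± 0.519 in WT High, beside 4.85 ± 0.289 and 5.11 ± 0.218 for Rptor, and at 2.81 ± 0.194 in TG Low and 2.67 ± 0.242 in WT Low, below Rptor at 4.72 ± 0.571 and 5.09 ± 0.223 (SD, n = 3 each). The coefficient of variation of the CPM over the 12 libraries ran from 5.80% (Tsc2) to 12.3% (Tsc1) for the other 9 genes; that of Rragd, 30.8%, holds the gate difference that chose the gene. The exon length counts every annotated exon base, so genes with long untranslated parts or rarely used exons come out too low on this scale.

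Genes of the wider pathway were taken from 15 lists of 133 genes, of which 127 were tested, 117 of them outside the 10 members. The lists covered the upstream regulators GATOR1 with KICSTOR and GATOR2, amino acid sensors, transporters, the vacuolar ATPase, growth factor and energy input, mTORC1 substrates, the transcription factors of the MiT/TFE family with their lysosomal targets, and the ATF4 response to amino acid shortage. Without the block, none of the 117 was called between the gates in either genotype. In edgeR, 8 in TG (6.84%) and 5 in WT (4.27%) had an unadjusted p under 0.05, against 4.91% and 3.32% of all tested genes, and DESeq2 called 0 in both. With the block 15 in TG (12.8%) and 8 in WT (6.84%) did, against 12.2% and 9.22% of all tested genes. The block left 0 of 117 called in TG and 1 in WT, where 1.68% and 1.63% of all tested genes were called. The median log2 difference of the 117 was -0.02 in TG and -0.01 in WT without the block, and -0.00 over all genes in both.

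The called gene was Prr5l, which encodes a protein that binds mTORC2, the other mTOR complex, and was named by the rule for called genes of a list. TG High libraries had 5.62, 2.91 and 5.49 CPM and TG Low libraries 3.64, 0.656 and 3.18 CPM. WT High libraries had 7.39, 4.05 and 5.71 CPM and WT Low libraries 2.98, 1.25 and 1.81 CPM. In each group replicate 2 was lowest, High exceeded Low in 6 of 6 pairs of the same number, and the TG groups overlapped while the WT groups did not. With the block the difference was 2.93-fold in WT (log2 1.55, SE 0.29, edgeR adjusted p = 0.0087) and was not called in TG (log2 0.99, SE 0.30, adjusted p = 0.122). Without the block it was called in neither (adjusted p = 1 for both).

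The Prr5l call rested on few reads, 13 to 138 per library. With the block, leaving out WT High replicate 2, WT Low replicate 1 or WT Low replicate 3 ended it (edgeR adjusted p = 0.0634, 0.0516 and 0.0689), as did leaving out the 4 libraries numbered 1 (adjusted p = 0.109). The difference of the Prr5l gate effect between the genotypes was not called (log2 -0.56, SE 0.41, edgeR adjusted p = 1 with the block).

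By list, the direction of the gate difference was mixed. Of the 5 Ragulator genes 1 had a positive High minus Low estimate in TG and 1 in WT, with medians of -0.10 and -0.06 on the log2 scale. Of the 16 vacuolar ATPase genes 4 were positive in TG and 4 in WT (medians -0.05 in both). Of the 5 GATOR2 genes 4 were positive in TG and 5 in WT (medians 0.09 and 0.13), and of the 8 amino acid sensors 6 and 6 (medians 0.13 and 0.09). The 19 tested lysosomal genes known as MiT/TFE targets had medians of -0.02 in TG and -0.03 in WT, and the 10 tested genes of the ATF4 response -0.04 and 0.03. None of the genes in these 6 lists was called in either genotype, with or without the block.

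**Figure D4:**
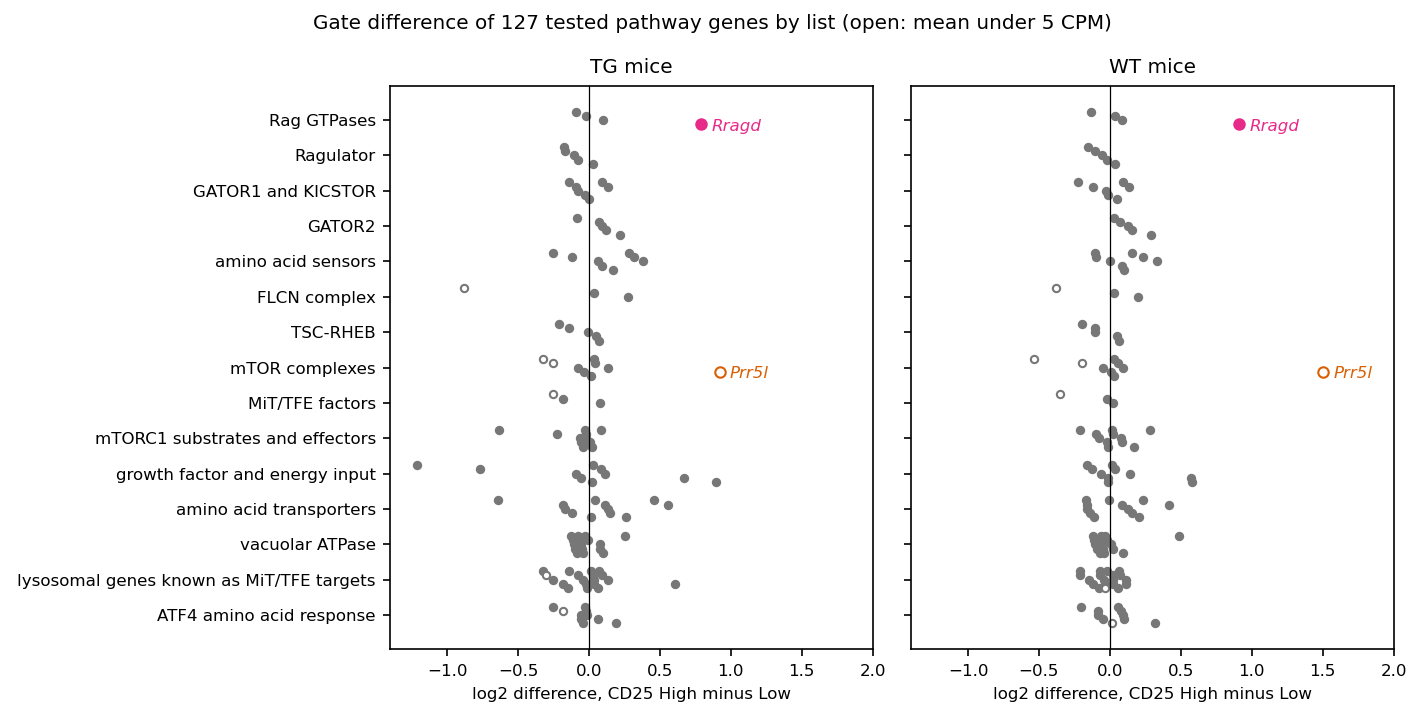
High minus Low log2 difference (x axes, fit without the block) of the 127 tested pathway genes, grouped by list (rows), in TG and in WT mice. Open points are genes with a mean under 5 CPM; Rragd (0.79 in TG, 0.91 in WT) and Prr5l (1.89-fold in TG, 2.83-fold in WT) lie to the right of the genes of their lists.

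The genes whose pattern was most like that of Rragd were ranked by Pearson's r over the 12 libraries, on log2 CPM centred on the mean of each replicate number, among the 8319 genes that averaged 10 CPM or more. The first 5 were Ahcyl2 (r = 0.983), Socs2 (0.981), Il2rb (0.975), Lrrc32 (0.972) and Ergic1 (0.972). Socs2 is an inhibitor of cytokine signalling induced by STAT5, Il2rb is the beta chain of the interleukin-2 receptor, and Lrrc32 anchors latent TGF-beta on regulatory T cells. Their High over Low folds were 1.46, 2.05, 1.802, 1.83 and 1.35 in TG and 1.45, 2.13, 1.81, 2.07 and 1.48 in WT, in the same order, beside 1.73 and 1.88 for Rragd. The libraries share the gates and their sort, and r is a description of these 12 points. Since Rragd was chosen for following the gate, genes that follow the gate rank high by that choice. Without centring, 2 of the 5 (Il2rb and Socs2) were again among the first 5. Centred on the 4 groups in place of the numbers, which removes the gate, 0 of the 5 were, and the highest r was 0.857.

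For the other members, r with Rragd on the measure centred on the replicate number ran from -0.58 for Lamtor1 and -0.47 for Rragc to 0.44 for Rraga and 0.48 for Tsc2. Centred on the 4 groups, it ran from -0.26 for Flcn to 0.44 for Tsc2 and 0.61 for Rraga, which then ranked 62 among 8319 genes.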

How the data were processed

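RNA from sorted cells was prepared with RNeasy Mini, amplified from 10 ng with a SMARTer Ultra Low kit and made into Nextera XT libraries, per the labels and the series text; this chemistry does not record strand. The deposited values are raw read counts per Ensembl gene; CASAVA 1.8.2, STAR 2.4, featureCounts 1.4.6 and the GRCm38 build are named in the submitters' processing notes. Symbols came from GENCODE release M21, which matched 21628 of 21839 genes and left 211 unmatched. Genes were kept by filterByExpr with a minimum count of 10, leaving 11766 genes that held 99.96% of the counts; 5778 genes had no count in any library.

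Counts were scaled by TMM and fitted for all 12 libraries and 4 groups with edgeR 4.0.16 (quasi-likelihood, robust) in R 4.3.3, with Benjamini-Hochberg adjustment over all tested genes and a threshold of 0.05. A second fit adds the replicate number as a block. Whether the numbers pair libraries was checked on deviations from the group means: r ran from 0.34 to 0.83 over 18 pairs of the same number and from -0.69 to 0.20 over 36 pairs of different number, and for all 12 libraries the best match carried its own number; the pairing rests on these data, not on the labels. Alternatives were DESeq2 1.42.0, its size factors (RLE), no filter, the compared groups alone, each library left out, and the 4 libraries numbered 1 left out. The fit without the block was also run on simulated counts that held no effect of the replicate number. In the real libraries 34.3% of tested genes differed between the numbers, so no conclusion is drawn from that run. The blocked fit was not tested in this way.

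CPM are the deposited counts divided by the TMM-scaled library size, and per-kilobase levels divide them by annotated exon length. Likeness to Rragd used log2(CPM + 0.5) of genes averaging 10 CPM or more. Named genes are the 10 members, Il2ra, Foxp3 and Atg5 as checks, up to 4 genes of each list per comparison that passed either fit, and the 5 genes most like Rragd. The members and lists were chosen with earlier results of these data known.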

Additional observations from a re-analysis of the deposited data

How the results depend on the processing

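Of 1478 member values under alternatives, 0 changed side of the threshold; 191 changed sign while passing it in neither setting, and the lowest adjusted p of a member was 0.251 (edgeR or DESeq2, the Rragd gate differences left out). The gate difference of Rragd stayed between 0.76 and 0.88 in TG and between 0.77 and 0.98 in WT on the log2 scale, and with the replicate block between 0.75 and 0.88 in TG and 0.77 and 1.01 in WT. Counts over all genes moved more. In TG the gate call of 1 gene became 198 with the replicate block, 56 in DESeq2, 3 with no filter, 0 with the compared groups alone, 0 without the 4 libraries numbered 1, and 0 to 3 with 1 library left out. In WT the 6 genes became 192 with the replicate block, 47 in DESeq2, 1 with the compared groups alone, 0 without the 4 libraries numbered 1, and 0 to 7 with 1 library left out. With the block, the 198 in TG became 39 without the libraries numbered 1 and 74 to 235 with 1 library left out (74 without TG Low replicate 1, 91 without TG High replicate 1), and the 192 in WT became 49 and 87 to 247 (87 without WT Low replicate 1, 96 without WT High replicate 1). The blocked TG minus WT comparison in Low called 0 to 2 genes with 1 library left out (2 without WT High replicate 2). DESeq2 called 2 members by replicate number in place of 1. The cause of these shifts was not tested. Where libraries were left out, the fit also had fewer of them. Outside the members, single genes were compared between edgeR with and without the block, on filtered and TMM-scaled counts of all 12 libraries. There, Prr5l, Il2ra, Foxp3, Trac, Top2a, Klrk1, Ncr1, Klrb1c and Klrd1 were called between the gates only with the block. The block changed no call of a member. The other alternatives were followed gene by gene for the members and Prr5l only. Low counts limit Prr5l, with 13 in its lowest library.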

Other observations

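Outside the 10 genes, Akt1, the growth factor kinase upstream of Tsc2, had a coefficient of variation of 82.3% over the 12 libraries. It was chosen after its values were seen. Akt1 stood at 26.1, 38.6 and 27.0 CPM in TG High, 27.2, 22.9 and 160.3 in TG Low, 31.2, 107 and 57.8 in WT High and 26.6, 23.3 and 82.4 in WT Low. Values above 38.6 CPM were those of WT High replicate 2 and of replicate 3 in TG Low, WT High and WT Low. Larp1, an mTORC1 effector that binds mRNAs of the translation machinery, was also highest in TG Low replicate 3 (215 CPM) and WT High replicate 2 (170.3 CPM), against 74.0 to 118 CPM in the other 10 libraries. With the groups centred, the genes most like Akt1 over the 12 libraries were Gatad2a (r = 0.985), C1galt1 (0.985), Asxl1 (0.984), Rcc2 (0.984) and Mprip (0.979), given as a description.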
